A study of Mus musculus with 8 samples.

Results

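The interferon-inducible GTPases followed here are 9 genes, the guanylate-binding proteins Gbp2, Gbp3, Gbp4, Gbp5 and Gbp7 and the immunity-related GTPases Irgm1, Irgm2, Igtp and Iigp1. They were picked by symbol, as members of these families. All 9 had a line in the deposited table of 11841 symbols, and all 9 passed the filter on low values that left 10281 genes for testing. RNA came from CD4+ T cells bearing CD44, the mark of antigen experience, which were sorted from the lymph nodes that drain the skin and kept with PMA and ionomycin for 2 h. The mice were T-bet-/-, STAT6-/-, T-bet-/- STAT6-/- (called double-knockout below) or wild type (WT), all BALB/cAJcl, with 2 libraries per genotype and 8 in all. PMA with ionomycin, which every library received, bypasses the T cell receptor. The labels give neither age, sex, the exons removed nor whether animals were pooled.

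Both families are large GTPases that cells make under interferon and that attack membranes around intracellular microbes. Interferon gamma binds the receptor pair IFNGR1 and IFNGR2 and signals through the kinases JAK1 and JAK2 to genes with GAS sites. Among the genes it induces is that of the factor IRF1, which binds interferon-stimulated response elements (ISRE). In CD4+ T cells T-bet, encoded by Tbx21, drives Ifng, whereas STAT6 carries the IL-4 signal towards the type 2 fate. Among the immunity-related GTPases, Irgm1, Irgm2 and Igtp are regulators that sit on the cell's own membranes, and Iigp1 is an effector that loads onto the vacuole of parasites such as Toxoplasma.

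On mm10 (RefSeq, GRCm38.p6) 4 genes lie side by side on chromosome 3, Gbp5 at 142496934-142522344, Gbp7 at 142530336-142550151, Gbp3 at 142560016-142573213 and Gbp2 at 142620663-142638008. Gbp4 lies on chromosome 5 at 105115767-105139586. Irgm1 lies on chromosome 11 at 48865245-48871420, and Igtp (58199556-58207592) and Irgm2 (58214977-58222783) are neighbours on the same chromosome. Levels are in FPKM, fragments per kilobase of transcript scaled to library size, so that genes of different length can be compared.

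Promoters are shown because they carry the letters through which interferon is known to act on such genes. RefSeq promoter entries of 250 bases before and 50 after the start matched 7 of the 9 genes, the others being Gbp4 and Iigp1. The short ISRE letters, GAAA followed after any 2 bases by a second GAAA, were searched on both strands and occurred in all 7 promoters and in 3.44% of all 32851 promoters of that length. In the stretches below, read 5′ to 3′ on the gene's strand, capitals mark those letters or their reverse, a pair of TTTC with the same gap.
Gbp2, chr3:142620579-142620638, plus strand: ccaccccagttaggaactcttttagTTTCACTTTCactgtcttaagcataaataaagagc
Gbp3, chr3:142559974-142560015, plus strand: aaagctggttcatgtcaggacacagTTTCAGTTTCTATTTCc
Gbp5, chr3:142496744-142496803, plus strand: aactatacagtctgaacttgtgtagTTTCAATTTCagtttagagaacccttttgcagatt
Gbp7, chr3:142530258-142530317, plus strand: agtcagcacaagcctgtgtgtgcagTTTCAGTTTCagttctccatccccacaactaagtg
Irgm1, chr11:48871421-48871475, minus strand: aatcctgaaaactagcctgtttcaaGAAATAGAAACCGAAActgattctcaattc
Irgm2, chr11:58214888-58214947, plus strand: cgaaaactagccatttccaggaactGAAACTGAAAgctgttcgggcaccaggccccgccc
Igtp, chr11:58199497-58199555, plus strand: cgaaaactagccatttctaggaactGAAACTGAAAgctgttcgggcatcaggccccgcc

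The guanylate-binding protein genes carried the reverse letters and the immunity-related GTPase genes the forward letters, relative to transcription. In 6 of the 7 promoters the match lay within 64 bases of the start, and in Gbp5 its first base was at -165. Gbp3, for which the first of its promoter entries is shown, and Irgm1 each held a pair of overlapping matches. The longer form, in which CT follows directly and which contains the short form, was found in Gbp2, Gbp3, Gbp5, Gbp7 and Irgm1 and in 0.271% of all promoters. GAS letters, TTCNNNGAA, which read the same on both strands, were found in Gbp5, Gbp7, Irgm2 and Igtp and in 8.3% of all promoters. In Irgm2 and Igtp they lie inside the printed stretches, just upstream of the capitals, and overlap no ISRE letters. Of 8 other interferon-inducible GTPase genes with an entry, 5 held the short ISRE letters. Such matches describe the letters and do not show that a factor binds.

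**Figure D1:**
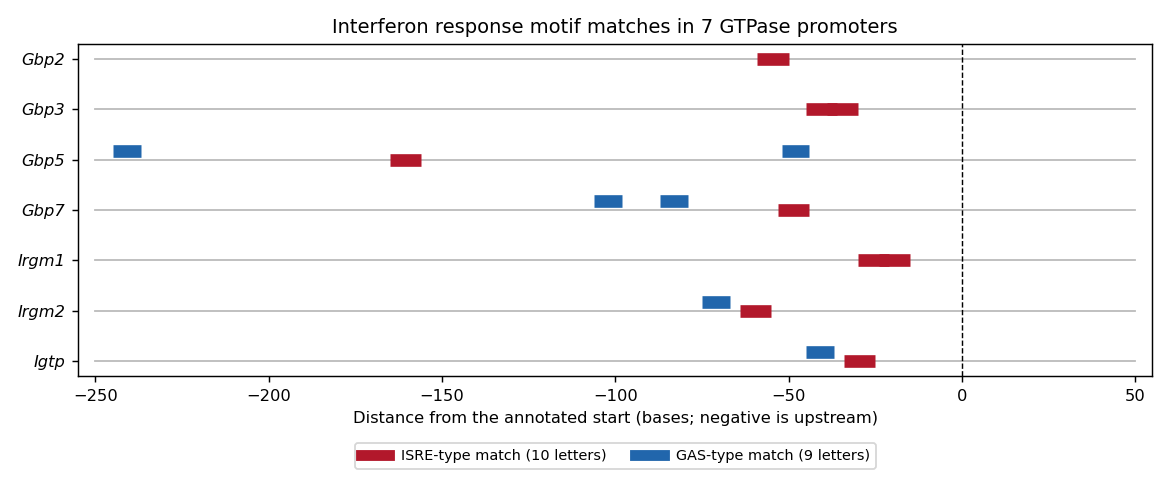
Matches to ISRE letters (red, 10 letters) and GAS letters (blue, 9 letters) along 7 GTPase promoters, with distance from the annotated start in bases on the x axis and 1 gene per row. Every row holds an ISRE match, which lies near the start except in Gbp5, where it begins at -165.

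Before any comparison, the libraries were examined as a whole. Steps between low values gave an approximate depth of 17200000 to 20900000 fragments per library. Pairs of replicates correlated at 0.9965 to 0.9977 over log2(FPKM + 1), pairs of libraries from different knockouts at 0.983 to 0.989, and pairs of a knockout and a WT library at 0.934 to 0.954. The WT libraries thus stood apart from all 3 knockouts. Tbx21 was at 1.44 and 1.54 FPKM in T-bet-/-, 102 and 92.1 in STAT6-/-, 2.49 and 2.09 in double-knockout and 30.8 and 31.6 in WT libraries. Stat6 was at 88.8 and 89.8 FPKM in T-bet-/-, 31.6 and 29.0 in STAT6-/-, 29.6 and 26.9 in double-knockout and 89.9 and 90.9 in WT libraries, so each targeted transcript was lower where labelled as lost. All 9 CD4 T cell markers, Cd4 and Cd3e among them, had lines, with summed levels of 2523 to 3163 FPKM over the 8 libraries. Single markers could differ more: mean Cd4 was 201 FPKM in WT, 118 in T-bet-/-, 127 in STAT6-/- and 99.1 in double-knockout cells. Cd44 went the other way, at 266, 439, 356 and 376 FPKM. By the limma test used below, 7 of the 9 were lower than in WT and 1 higher in T-bet-/- cells. The counts were 4 and 3 in STAT6-/- and 5 and 2 in double-knockout cells. Over all genes, 36.1% to 36.7% were called lower and 34.2% to 36.3% higher. Their part in any comparison was not tested. The erythroid genes Hba-a1 and Beta-s summed to 224 to 442 FPKM in WT and to 2.63 to 7.48 FPKM in the knockout libraries, and their part in any comparison with WT was not tested.

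Ifng, the ligand gene, differed in every pair of genotypes. It stood at 32.4 and 33.9 FPKM in T-bet-/-, at 3516 and 3704 in STAT6-/-, at 15.96 and 17.8 in double-knockout and at 1029 and 1250.4 in WT libraries. No genotypes overlapped. Mean Ifng was 109 times higher in STAT6-/- than in T-bet-/- cells, and mean levels of the 9 GTPase genes were 2.05 to 11.8 times higher. The GTPases spanned a narrower range than the cytokine.

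Gbp3 was the most abundant of the 9 in every library. This gene of the chromosome 3 cluster stood at 58.2 and 58.3 FPKM in T-bet-/-, 140.1 and 143 in STAT6-/-, 86.5 and 88.1 in double-knockout and 118 and 119 in WT libraries. Its levels fell in the order STAT6-/-, WT, double-knockout, T-bet-/-, and each step of that order passed the test. Ifng had the last 2 genotypes the other way round.

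Gbp2, a lipid-anchored protein that is drawn to the Toxoplasma vacuole, stood at 13.3 and 11.8 FPKM in T-bet-/-, 25.2 and 26.1 in STAT6-/-, 11.1 and 11.4 in double-knockout and 27.0 and 25.4 in WT libraries. Gbp4, from the chromosome 5 cluster, had 9.80 and 9.85 FPKM in T-bet-/-, 24.2 and 23.8 in STAT6-/-, 7.67 and 8.30 in double-knockout and 26.5 and 25.8 in WT libraries. Both were high where T-bet was intact and low where it was lost. STAT6-/- and WT libraries overlapped in Gbp2. In Gbp4 both STAT6-/- libraries lay below both WT libraries, but the difference did not pass the test. Double-knockout libraries lay just below T-bet-/- libraries in Gbp2, again without passing the test.

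Gbp7, reported in mice to help deliver antimicrobial machinery to vacuoles, stood at 11.5 and 11.8 FPKM in T-bet-/-, 32.8 and 32.5 in STAT6-/-, 11.2 and 11.5 in double-knockout and 17.2 and 19.8 in WT libraries. Its T-bet-/- and double-knockout libraries lay close together, without overlap, below all others. Gbp5, known for its part in inflammasome activation, had another order: 17.1 and 16.9 FPKM in T-bet-/-, 65.2 and 60.1 in STAT6-/-, 28.2 and 30.3 in double-knockout and 15.96 and 15.88 in WT libraries. Gbp5 alone of the 9 genes had its lowest mean in WT, and both genotypes without STAT6 stood above both with it.

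The regulators Irgm1, Irgm2 and Igtp were lowest in T-bet-/- cells. Irgm1, which in mice protects T cells exposed to interferon gamma from death, stood at 8.06 and 9.35 FPKM in T-bet-/-, 50.9 and 46.1 in STAT6-/-, 13.4 and 14.7 in double-knockout and 31.5 and 29.3 in WT libraries. Igtp had 24.1 and 21.7 FPKM in T-bet-/-, 78.2 and 77.0 in STAT6-/-, 31.3 and 35.5 in double-knockout and 63.6 and 58.9 in WT libraries. No genotypes overlapped in either gene, and all steps passed the test.

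Irgm2, the neighbour of Igtp, stood at 8.38 and 8.27 FPKM in T-bet-/-, 22.0 and 21.3 in STAT6-/-, 12.1 and 13.3 in double-knockout and 31.2 and 28.1 in WT libraries. It differed from Irgm1 and Igtp in having WT, not STAT6-/-, as its highest genotype. Iigp1, the effector, which lies on chromosome 18 at 60373616-60392634, stood at 1.72 and 2.17 FPKM in T-bet-/-, 22.0 and 23.9 in STAT6-/-, 1.55 and 2.07 in double-knockout and 8.62 and 8.97 in WT libraries. Both T-bet-deficient genotypes overlapped near the bottom of the range, and Iigp1 had the largest ratio between genotype means of the 9, 12.7 for STAT6-/- over double-knockout cells.

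**Figure D2:**
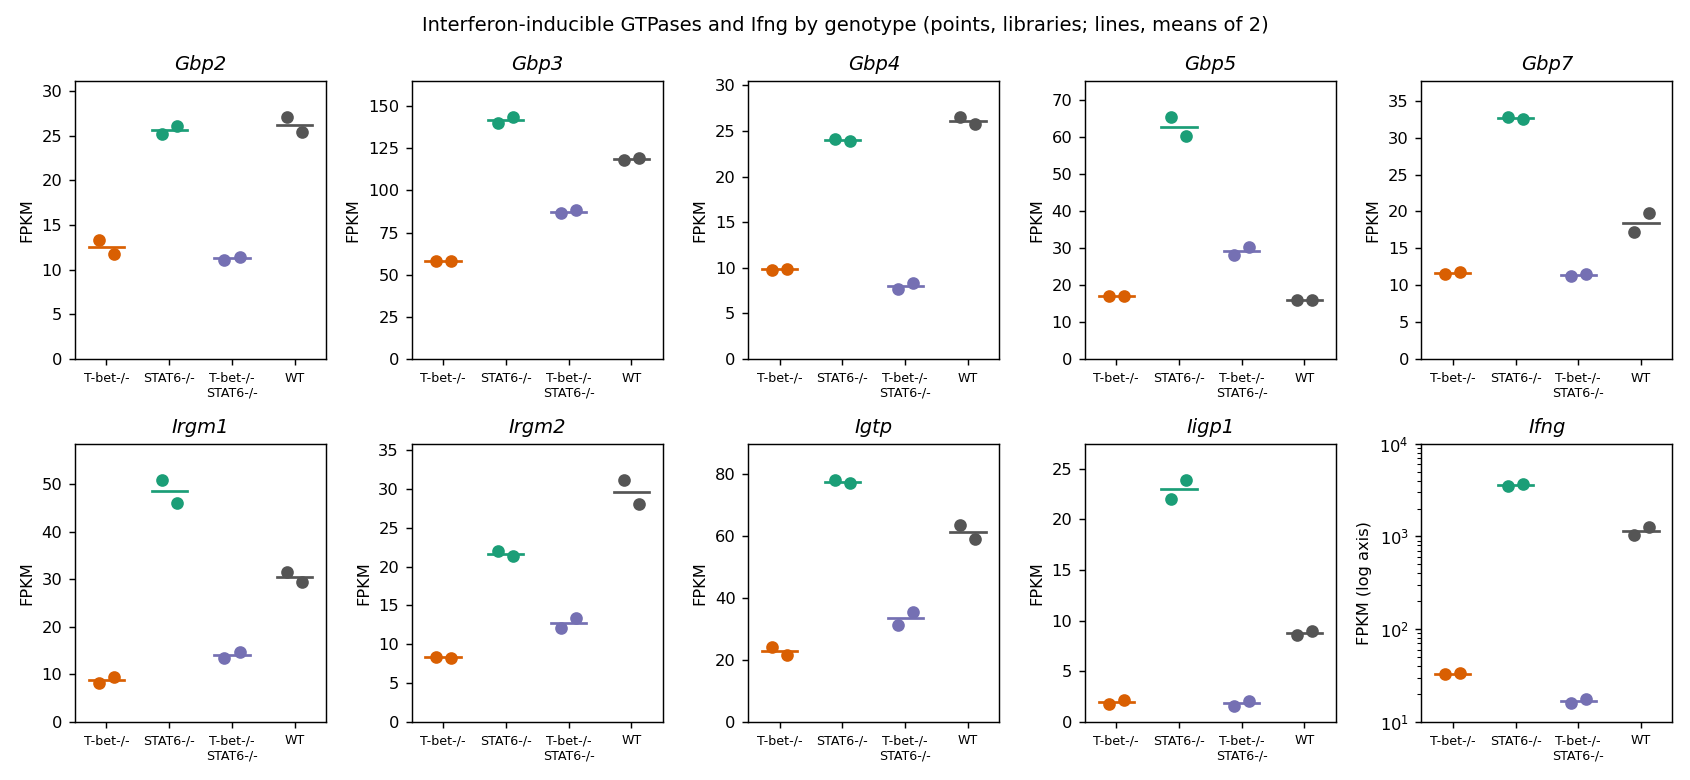
FPKM of the 9 GTPase genes (linear axes starting at 0) and of Ifng (log axis) in each library, by genotype; points are libraries and lines are means of 2. Most genes are low in both T-bet-deficient genotypes, whereas Gbp5 is lowest in WT at 15.9 FPKM and highest in STAT6-/- cells at 62.7.

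Replicates lay close together beside these differences. The higher library exceeded the lower by a median factor of 1.05 over the 9 genes and 4 genotypes, and at most by 1.34, for Iigp1 in double-knockout cells. Iigp1 also rested on the fewest fragments, about 91.4 in its lowest library, where counting alone gives an error of about 10.5%. For the other 8 genes the lowest library held between about 313 and 2687 fragments. Family members share sequence: of the 50-base windows of the longest coding transcript in GENCODE, 12.8% in Gbp4, 12.8% in Gbp7 and 12.3% in Igtp also occur in another gene, against 0.814% in Irgm1 and 0.898% in Gbp5. The partners were chiefly Gbp11 and Gbp6 for Gbp4 and Irgm2 for Igtp, so these levels are less certain. Igtp and Irgm2 also have 162 exonic bases on the same strand annotated to both. For Gbp7 the partner was chiefly the pseudogene Gm43802, annotated on the same strand over 637 of the same exonic bases. Windows shared there can thus be 1 stretch annotated in both genes and not a second copy. Gbp7 shared 126 windows with Gbp3.

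Loss of T-bet with STAT6 intact was examined first. In T-bet-/- cells 8 of the 9 GTPase genes were lower than in WT and 0 higher, by a limma test across all genes, where 36.3% of the 10281 genes were called lower and 34.2% higher. The median change was -1.33 on the log2(FPKM + 1) scale, a scale that understates changes of low genes such as Iigp1, against -0.02 over all genes tested. The regulators changed by -1.70 ± 0.0848 (SE) for Irgm1, -1.72 ± 0.0698 for Irgm2 and -1.38 ± 0.0761 for Igtp. Iigp1 changed by -1.74 and, among the guanylate-binding proteins, Gbp4 by -1.33, Gbp3 by -1.01, Gbp2 by -1.01 and Gbp7 by -0.62. Gbp5 gave 0.09 (95% interval -0.05 to 0.23, adjusted p = 0.227). Ifng changed by -5.06, and its mean was 34.4 times higher in WT than in T-bet-/- cells.

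Other genes of the pathway were read from lists chosen with earlier results of these data known. Of 15 other interferon-inducible GTPase genes tested, all 15 were lower in T-bet-/- cells (median -0.91), with Gbp6 at -1.77, Gbp10 at -1.74, Tgtp2 at -1.53 and Gm12250 at -1.50. Gbp6 with Gbp10, and Tgtp1 with Tgtp2, are near-identical pairs whose reads may be split between copies. Of 17 genes of interferon gamma signalling, 2 were higher, Jak2 (1.12) and Irf8 (0.62), and 12 lower (median -0.44). Irf1 changed by -1.25, the receptor chain Ifngr1 by -1.52 and Ptpn6, a phosphatase that opposes JAK signals, by -1.49. The feedback inhibitor Socs1 changed by -0.33 (adjusted p = 0.0171), and Ifngr2 gave -0.31 (adjusted p = 0.0659).

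Antiviral genes of type I interferon were also lower in T-bet-/- cells, 6 of 8 tested with 1 higher (median -0.91). The fall against WT was not particular to loss of T-bet, with medians of -0.67 in STAT6-/- and -0.92 in double-knockout cells. Ifit1 and Dhx58 reached 1 FPKM in WT libraries alone, so the filter itself favoured their fall. Irf7, the type I interferon regulator, changed by -1.37, Ifit1 by -1.13 and Rtp4 by -1.05, whereas the RNA sensor Ifih1 changed by 1.21. Genes of the autophagy conjugation system and other partners that load or regulate the GTPases were mixed, with 6 genes higher and 7 lower among 16 (median -0.02), with Atg7 at -0.55, Map1lc3b at -0.52, Atg16l1 at 0.44 and Atg5 at 0.43.

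Myeloid and dendritic cells express these GTPases too, so their markers were read beside the result. Of 16 markers 9 had lines, and their summed level was 120 to 124 FPKM in T-bet-/-, 160.1 to 262 in STAT6-/-, 133 to 151 in double-knockout and 199 to 241 in WT libraries. The defining markers Itgam, Itgax, Csf1r and Flt3 had no line among those analysed here. The part of such cells in the result was not tested. Within the list, Cd74, the invariant chain gene, stood at 104.6 and 45.5 FPKM in the STAT6-/- libraries and the lysozyme gene Lyz2 at 13.1 and 13.6 FPKM. B cell markers summed to 8.86 and 3.65 FPKM in the same libraries. The sum over the 9 GTPase genes was 152 and 150.1 FPKM in T-bet-/-, 461 and 454 in STAT6-/-, 203 and 215 in double-knockout and 339.7 and 331 in WT libraries. In bulk RNA, fewer cells making a transcript and less transcript per cell cannot be told apart.

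Loss of STAT6 with T-bet intact had mixed results. In STAT6-/- cells 6 of the 9 genes were higher than in WT and 1 was lower, where 34.9% of all genes were called higher and 36.1% lower. The median change was 0.34, against -0.01 over all genes. Gbp5 changed the most, by 1.91 ± 0.0612 (SE, adjusted p = 9.01e-08), followed by Iigp1 (1.29), Gbp7 (0.79), Irgm1 (0.66), Igtp (0.34) and Gbp3 (0.25). Irgm2 was lower by 0.43 on that scale, at -0.43 ± 0.0698 (adjusted p = 0.000471). Gbp2 gave -0.03 (95% interval -0.19 to 0.13) and Gbp4 -0.12 (-0.25 to 0.01). Mean Ifng was 3.17 times higher in STAT6-/- than in WT cells, and the ratio of means over the 9 genes ran between 0.731 for Irgm2 and 3.94 for Gbp5.

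Other pathway genes did not rise together in STAT6-/- cells. Irf1 stood at 95.01 and 77.9 FPKM in STAT6-/- and 83.2 and 68.9 FPKM in WT libraries, which overlapped (0.18, adjusted p = 0.145). The receptor genes were lower, Ifngr1 with 22.0 and 20.0 FPKM in STAT6-/- against 62.4 and 50.5 in WT libraries (-1.38), and Ifngr2 with 2.60 and 2.38 against 9.0004 and 6.21 FPKM (-1.28). Irf8 was higher (1.49), and Socs1 gave -0.03 (adjusted p = 0.79). In all, 5 genes of interferon gamma signalling were higher and 6 lower of 17 (median -0.03). Other GTPase genes gave 5 higher and 7 lower of 15 (median -0.16), with falls in 9930111J21Rik1 (-0.89), 9930111J21Rik2 (-0.68), Gbp9 (-0.63) and Gbp8 (-0.52). Antiviral genes gave 1 higher and 5 lower of 8 (median -0.67), and GTPase partners 7 higher and 5 lower of 16, with Atg5 at 0.68 and Casp1, an inflammasome caspase, at 0.60.

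The single mutants were next set against each other, a comparison that uses no WT library. All 9 GTPase genes were higher in STAT6-/- than in T-bet-/- cells, where calls over all genes came to 12.3% higher and 14.9% lower. The median change was 1.41, against -0.03 over all genes. It ranged between 0.98 ± 0.0687 (SE) for Gbp2 and 3.03 ± 0.107 for Iigp1, with Irgm1 at 2.35, Gbp5 at 1.82 and Igtp at 1.72. Ifng changed by 6.73 and Irf1 by 1.44. Of the other GTPase genes 10 were higher and 0 lower of 15 (median 0.77), led by Gm12250 (1.96) and Tgtp1 (1.72). Of the antiviral genes 2 were higher and 0 lower of 8, Rtp4 (0.71) and Isg15 (0.36). Markers of natural killer and innate-like T cells summed to 20.6 to 23.3 FPKM in STAT6-/- and 6.55 to 7.72 FPKM in T-bet-/- libraries. Nkg7 made up much of this, with means of 16.4 and 5.35 FPKM, whereas Zbtb16, not tested, went the other way (0.207 and 0.473 FPKM). The part of such cells in the result was not tested. The NK marker genes Ncr1, Klrb1c and Eomes had no line among those analysed here. Of 8 myeloid and dendritic markers tested, 4 were higher and 0 lower in STAT6-/- than in T-bet-/- cells, with Lyz2 at 1.84. The part of myeloid and dendritic cells was not tested either.

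**Figure D3:**
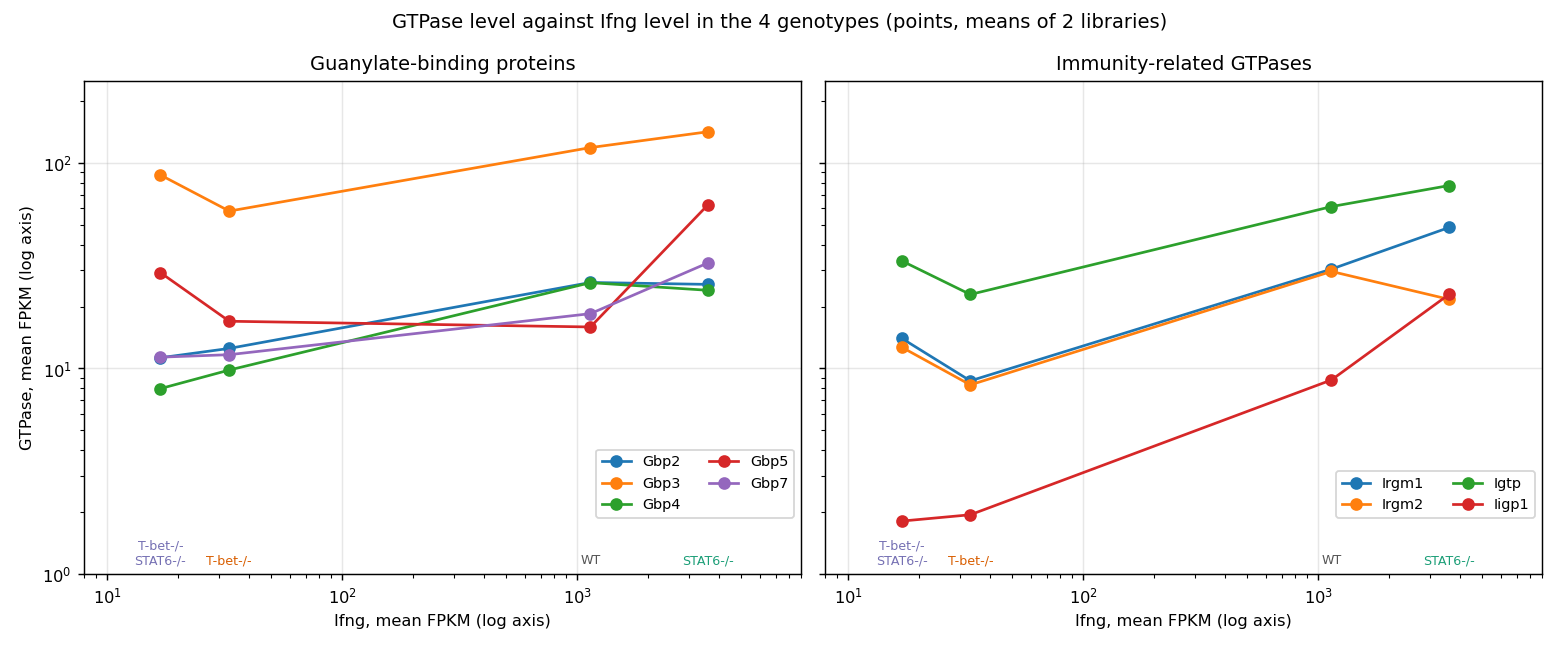
Mean FPKM of each GTPase gene (y, log axis) against mean FPKM of Ifng (x, log axis) in the 4 genotypes, guanylate-binding proteins on the left and immunity-related GTPases on the right; points are means of 2 libraries. Gbp3, Gbp5, Irgm1, Irgm2 and Igtp turn upward at the lowest Ifng level, 16.9 FPKM in double-knockout cells, against 33.1 FPKM in T-bet-/- cells.

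Loss of T-bet in the absence of STAT6 was examined next. All 9 genes were lower in double-knockout than in STAT6-/- cells, where 8.63% of all genes were called lower and 11.3% higher. The median change was -1.19, against 0.01 over all genes. Iigp1 changed by -3.10 ± 0.107 (SE), Irgm1 by -1.72, Gbp4 by -1.48, Gbp7 by -1.45, Igtp by -1.19, Gbp2 by -1.12, Gbp5 by -1.07, Irgm2 by -0.73 and Gbp3 by -0.69 ± 0.0469. Ifng changed by -7.66, and its mean was 214 times higher in STAT6-/- than in double-knockout cells, while the GTPase means were 1.62 to 12.7 times higher. Of the other GTPase genes 13 were lower and 0 higher of 15 (median -1.02), with Tgtp1 at -1.62 and Tgtp2 at -1.50. Irf1 changed by -0.69, and of 17 signalling genes 7 were lower and 0 higher. Ifngr1 gave -0.21 (adjusted p = 0.146) and Ifngr2 0.25 (adjusted p = 0.229). Antiviral genes gave 3 lower and 0 higher of 8. All 3 natural killer and innate-like markers tested were lower too, Nkg7 at -2.80, Klrc1 at -0.64 and Klrk1 at -0.43. Klrk1 reached 1 FPKM in STAT6-/- libraries alone, so the filter itself favoured its fall. Zbtb16, not tested, had means of 0.217 FPKM in double-knockout and 0.207 FPKM in STAT6-/- cells. Marker sums were 4.30 to 4.97 FPKM in double-knockout and 20.6 to 23.3 FPKM in STAT6-/- libraries. The part of natural killer and innate-like cells in the result was not tested.

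Loss of STAT6 in the absence of T-bet went with higher levels of some GTPases and a lower level of Ifng. In double-knockout cells 5 of the 9 genes were higher than in T-bet-/- cells and 1 was lower, where 16.4% of all genes were called higher and 16.2% lower. The median change was 0.53, against 0.01 over all genes. Those higher were Gbp5 (0.75 ± 0.0612, SE), Irgm1 (0.63), Gbp3 (0.57), Irgm2 (0.55) and Igtp (0.53), that is, all 3 regulators and 2 of the guanylate-binding proteins. Gbp4 was lower (-0.27, adjusted p = 0.00873), a call that was lost without T-bet-/- replicate 1 (-0.27, adjusted p = 0.05) or replicate 2 (-0.27, adjusted p = 0.0584), at much the same change. Gbp2 gave -0.14 (95% interval -0.29 to 0.02), Gbp7 -0.04 (-0.19 to 0.12) and Iigp1 -0.07 (-0.31 to 0.17).

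Ifng in the same comparison changed by -0.93 (adjusted p = 0.0002), with a mean of 16.9 ± 1.30 FPKM in double-knockout and 33.1 ± 1.05 FPKM in T-bet-/- cells (SD, n = 2 each). Irf1 was higher, at 53.2 and 53.0 FPKM in double-knockout and 31.6 and 30.7 FPKM in T-bet-/- libraries (0.75, adjusted p = 0.0011). Socs3, a cytokine feedback inhibitor, changed by 1.05 and Ifngr2 by -0.73, while Ifngr1 gave -0.07 (adjusted p = 0.593). In all, 6 signalling genes were higher and 5 lower of 17 (median 0.15). Of the other GTPase genes 2 were higher and 7 lower of 15 (median -0.25), with Gm12250 at 0.74 and 9930111J21Rik1 at -0.57. Antiviral genes gave 1 higher, Ifih1 (0.30), and 0 lower of 8. Among GTPase partners 3 were higher and 1 lower of 16, Atg5 at 0.39 having the largest change.

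Against WT, double-knockout cells had 8 of the 9 genes lower and 1 higher, where 36.7% of all genes were called lower and 36.3% higher. The median change was -1.06, against -0.005 over all genes. Iigp1 changed by -1.81, Gbp4 by -1.60, Irgm2 by -1.16, Gbp2 by -1.15, Irgm1 by -1.06, Igtp by -0.86, Gbp7 by -0.65 and Gbp3 by -0.44. The gene that was higher was Gbp5 (0.84 ± 0.0612, SE). Its mean was 29.2 ± 1.53 FPKM in double-knockout and 15.9 ± 0.0547 FPKM in WT cells (SD, n = 2 each). All 15 other GTPase genes were lower (median -1.22), with Gbp10 at -1.89 and Gbp6 at -1.73. Irf1 changed by -0.50 and Ifng by -5.99. Antiviral genes gave 1 higher, Ifih1 (1.51), and 7 lower of 8 (median -0.92). Ifngr1 (-1.59) and Ptpn6 (-1.33) were lower, as in the single mutants against WT. All 3 comparisons with WT share the WT libraries.

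**Figure D4:**
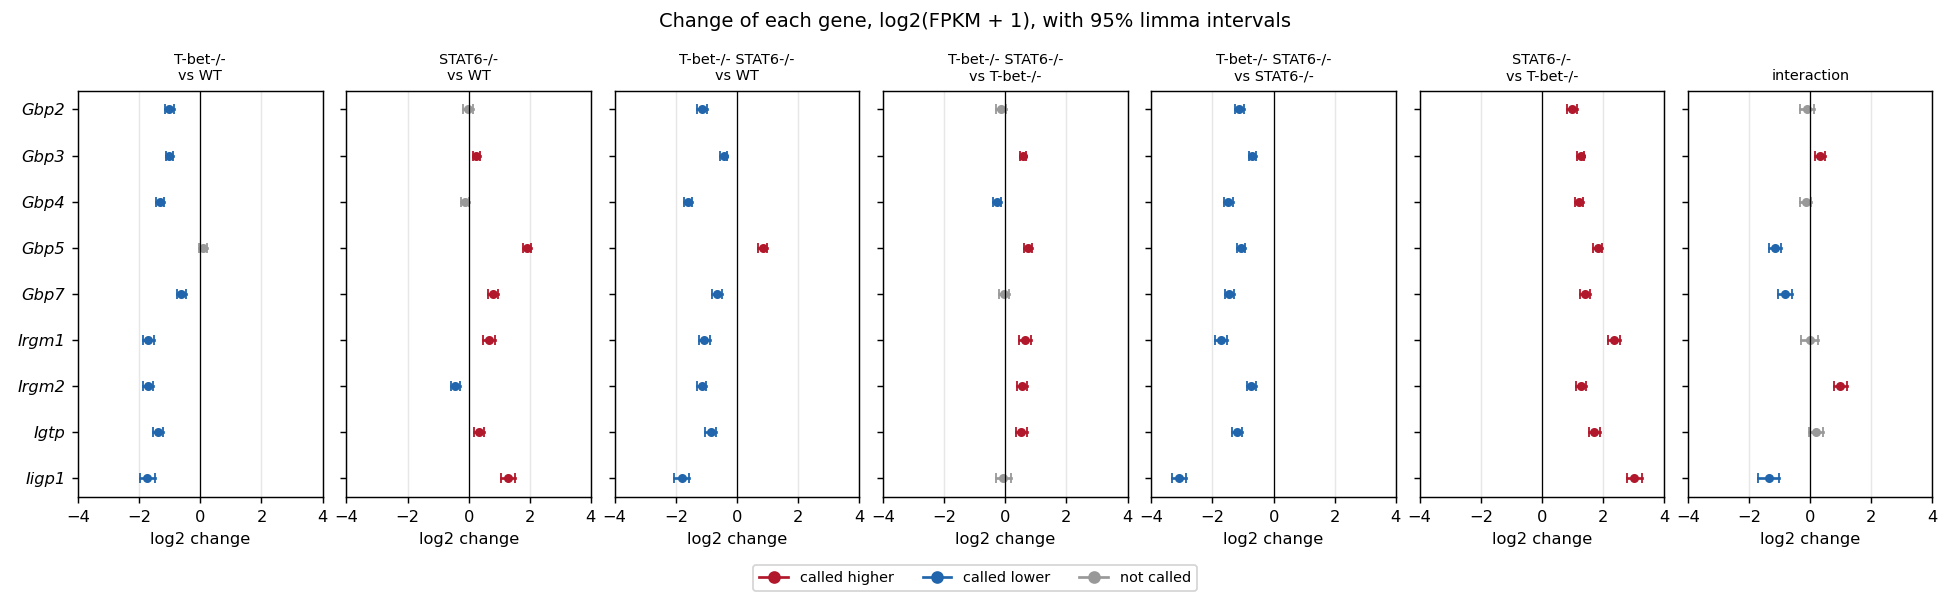
Change of each GTPase gene on the log2(FPKM + 1) scale (x) in 6 pairwise comparisons and in the interaction, with 95% limma intervals; red genes were called higher, blue lower and grey not called. All 9 genes are lower in double-knockout than in STAT6-/- cells, and Gbp5 is the sole gene above 0 in double-knockout against WT cells.

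Whether the effect of STAT6 loss depended on T-bet was tested as an interaction, the effect in T-bet-/- cells minus that in T-bet-sufficient cells. It was called for 5 of the 9 genes, 2 higher and 3 lower, where 29.6% of all genes were called higher and 27.7% lower. Irgm2 gave 0.99 ± 0.0987 (SE, adjusted p = 7.89e-05), with a STAT6 effect of 0.55 in T-bet-/- and -0.43 in T-bet-sufficient cells. Gbp3 gave 0.32 ± 0.0663 (adjusted p = 0.00321). Iigp1 gave -1.36 ± 0.151, Gbp5 -1.16 ± 0.0865 and Gbp7 -0.83 ± 0.0981, each with the larger STAT6 effect where T-bet was present. Irgm1 gave -0.02 (95% interval -0.29 to 0.25), with STAT6 effects of 0.63 in T-bet-/- and 0.66 in T-bet-sufficient cells. The share of genes called was close to the 57.3% of all genes called in either direction.

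How alike the 9 profiles were was measured as the root mean square (RMS) difference of centred log2(FPKM + 1) over the 8 libraries. Gbp2 and Gbp4, on different chromosomes, were the closest pair at 0.18, followed by Gbp3 and Igtp at 0.23 and Irgm1 and Igtp at 0.26. Gbp5 and Iigp1 stood farthest from the rest. The nearest of the others to Gbp5 was its chromosome 3 neighbour Gbp7 at 0.56, and the nearest to Iigp1 was Irgm1 at 0.49. Gbp5 and Iigp1 differed from each other by 1.03, more than any other pair.

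**Figure D5:**
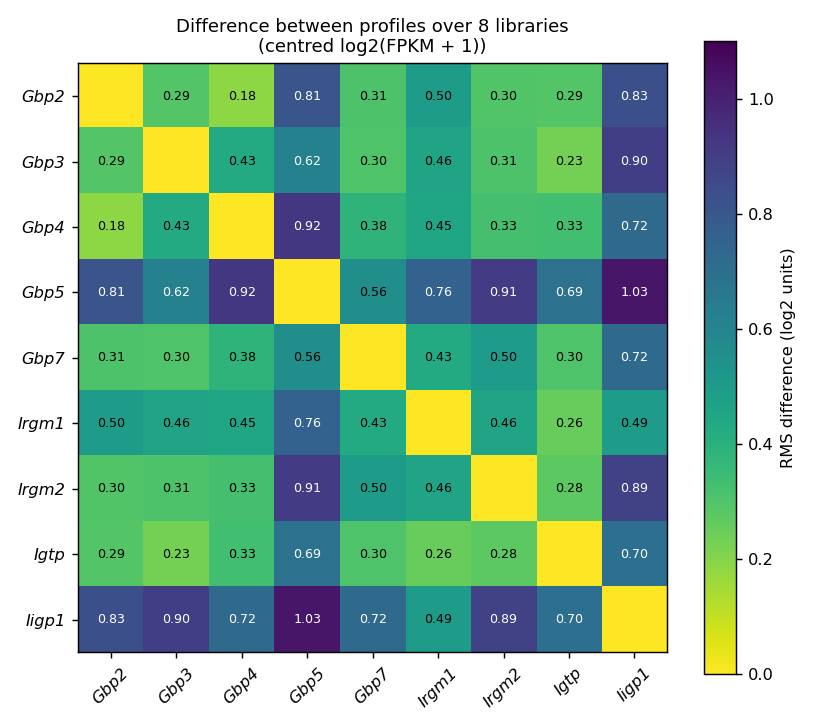
RMS difference between the profiles of each pair of GTPase genes over 8 libraries, in log2 units; darker cells are less alike. Gbp5 and Iigp1 form the dark rows, with 1.03 between them, and Gbp2 with Gbp4 is the most alike pair at 0.18.

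Among the 10272 other genes tested, those with the profile nearest to a GTPase were found by the same measure. Irf1 was second nearest to Gbp3 (0.14), behind the peptide transporter gene Tap1 (0.12). Gm12250 was nearest to both Igtp (0.10) and Irgm1 (0.21). It stood at 0.595 to 5.65 FPKM, where this scale understates changes. Mean Gm12250 was 8.42 times higher in STAT6-/- than in T-bet-/- cells, against 3.39 times for Igtp and 5.57 times for Irgm1. Ifi47, itself an interferon-inducible GTPase, was nearest to Gbp2 (0.08) and Mfap1a to Gbp4 (0.07). Gbp5 had the serpin genes Serpina3h (0.14) and Serpina3i (0.17) and the adhesion molecule gene Icam1 (0.20) as nearest genes. Both serpin genes were low, between 0.715 and 5.13 FPKM, so the same limit of the scale holds for them. Icam1 stood at 29.1 and 27.4 FPKM in T-bet-/-, 92.7 and 73.6 in STAT6-/-, 57.1 and 48.9 in double-knockout and 29.1 and 27.5 in WT libraries. Iigp1 lay nearest to the chemokine gene Ccl4 (0.25), and Gbp7 to Krt17 (0.15), a keratin gene at 0.483 to 3.50 FPKM.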

How the data were processed

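The authors deposited FPKM values, made with Cufflinks on mm10 per the submitters' processing notes, in 1 column per library; RefSeq annotation is stated by the table's own name, and the aligner, versions and strandedness are not stated. All 11906 lines lay above 0.1 FPKM in all 8 libraries, so genes silent in any library have no line. Where a symbol had more than 1 line (43 symbols), the line of highest mean entered the fit. Depth is not printed and was estimated from 500 genes under 0.5 FPKM; against the first library, 92 to 109 of them fell on simple fractions in the others, and 22 gave an absolute depth, so it is approximate.

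Genes with at least 1 FPKM in at least 2 libraries were tested with limma 3.58.1 (R 4.3.3) on log2(FPKM + 1), in 1 fit of all 8 libraries with a mean per genotype and an intensity trend, two-sided. Benjamini-Hochberg adjustment ran over all 10281 genes in each of 7 comparisons, and genes were called at an adjusted p under 0.05. The script was tested on simulated data. Alternatives changed the pseudocount (0.1), the filter (none, 5 FPKM), the scaling, the variance trend, the samples fitted, duplicate lines, the replicate block and each library. No label states that the 2 libraries of a genotype are from different animals, and p-values therefore reflect spread among these libraries alone, possibly technical. The 9 genes and the lists were chosen with earlier results of these data known. Named were the 9 genes, the targeted genes, Ifng, Irf1, the receptor genes and Socs1, up to the 4 largest called changes of each list and genes among the 3 nearest profiles; 1 gene is not reported here. Python 3.11.15, pandas 2.3.3 and matplotlib 3.10.9 were used.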

Additional observations from a re-analysis of the deposited data

Results flagged for a closer look

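The effect of STAT6 loss differed with T-bet status in 5 of the 9 genes, by the interaction test of limma, a share close to the 57.3% of all genes called. Irgm2 (0.99) and Gbp3 (0.32) had the higher effect in T-bet-/- cells, and Iigp1 (-1.36), Gbp5 (-1.16) and Gbp7 (-0.83) had the lower. Irgm2 alone of the 9 had STAT6 effects called in opposite directions, with 12.7 ± 0.855 FPKM in double-knockout against 8.32 ± 0.0757 in T-bet-/- cells, and 21.7 ± 0.514 in STAT6-/- against 29.6 ± 2.15 in WT cells (SD, n = 2 each). The interaction uses the WT libraries, which stood apart from all knockouts. Genotypes of 2 libraries are too small to test for single libraries that stand apart.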

How the results depend on the processing

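Of 1180 changes of the 9 genes and Ifng recomputed under 17 alternatives, 1166 kept their direction and side of the threshold, and 10 changed sign, none of which was called in either setting. Under quantile normalization 2 of the 9 genes were lower in STAT6-/- than in WT cells, against 1, Gbp4 being added (-0.22, adjusted p = 0.00546 by limma). Under a filter of 5 FPKM, which left 7270 genes, 2449 genes were lower in STAT6-/- than in WT cells. The interaction changed sign for Gbp2 under quantile normalization (0.00033) and for Irgm1 with a pseudocount of 0.1 (0.015) and under quantile normalization (0.061). Leaving out each library in turn gave ranges of -0.118 to 0.0743 for the interaction of Irgm1, of -0.0739 to 0.0153 for Gbp2 in STAT6-/- against WT, and of -0.204 to 0.0657 for Iigp1 in double-knockout against T-bet-/- cells. The interaction of Igtp passed the test without double-knockout replicate 1 (0.28, adjusted p = 0.0488).

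With 1 library left out, the genes lower among the 9 in double-knockout against T-bet-/- cells numbered 0 to 1. Over all genes, double-knockout against T-bet-/- gave 770 to 1844 higher and 861 to 1641 lower, double-knockout against STAT6-/- 459 to 1201 higher and 381 to 883 lower, and STAT6-/- against T-bet-/- 710 to 1401 higher and 733 to 1683 lower. The lowest counts came without T-bet-/- replicate 2, STAT6-/- replicate 1 and T-bet-/- replicate 2 in those comparisons, and leaving out any library of T-bet-/- or STAT6-/-, or double-knockout replicate 2, moved at least 1 of these counts by over 1.5 times; these fits hold fewer samples. A genotype with 1 library was assumed to vary like the others. Same-numbered libraries deviated with correlations of -0.09 to 0.09, so no strong shared deviation was seen, which cannot show whether they were handled together. With the replicate block the counts among the 9 genes were the same in all 7 comparisons (8 lower in T-bet-/- and 6 higher in STAT6-/- against WT). Depth limits Iigp1 most.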
